A study of Mus musculus with 12 samples.

Results

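The fatty acid and glycerol uptake genes described here are 9 genes that free fatty acids from circulating fat, carry them across the cell membrane or bind them inside the cell, or pass glycerol through the membrane and phosphorylate it. They are Lpl, Fabp3, Fabp4, Fabp5, Cd36, Slc27a1, Slc27a4, Aqp7 and Gk. Members were taken by gene symbol from the annotation of the array, with every probe that carried the symbol. In all, 13 of 45281 probes carried the symbol of 8 of the 9 genes, out of 19057 genes named on the array. Expression of Gk was not analysed here. A probe was tested where its detection p-value, the scanner software's measure of signal above the negative controls, was under 0.05 on at least 3 of the 12 arrays. This held for 18921 probes, of which 8 belonged to 6 of the uptake genes. The tested probes were 1 each for Lpl, Fabp4, Fabp5, Slc27a1 and Slc27a4 and 3 for Aqp7.

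RNA came from NIH-3T3 cells, a mouse embryonic fibroblast line, which had been infected with a lentivirus carrying PPARγ2 and were grown with blasticidin. The 4 groups of 3 arrays were cells with the E157D receptor given 20 µM rosiglitazone for 24 h, cells with the E157D receptor given the vehicle DMSO, cells with the wild-type receptor given rosiglitazone and cells with the wild-type receptor given DMSO. Every group thus carried an introduced receptor, and there was no group without one. The labels speak of 3 independent experiments. The sources used here do not say whether each receptor line came from 1 infection or several, so the p-values measure the spread between these cultures only. All 3 probes for Pparg were below detection on all 12 arrays, so the amount of receptor in the lines was not measured, and a change in the receptor and a change in its amount cannot be told apart.

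PPARγ is a nuclear receptor that, paired with RXR, binds direct repeats of a hexamer in DNA and turns on genes of fat storage. Rosiglitazone is a thiazolidinedione that binds and activates it. E157D denotes an aspartate in place of a glutamate in the DNA-binding domain of PPARγ2. In fat cells lipoprotein lipase releases fatty acids from circulating triglyceride, CD36 and the SLC27 proteins take part in bringing them in, and the FABP proteins carry them in the cytosol. AQP7 is a membrane channel through which glycerol passes, and glycerol kinase, the product of Gk, makes glycerol phosphate from it. Lpl, Fabp4, Cd36 and Aqp7 are known from fat cells of the mouse as targets of PPARγ.

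Between 36.7% and 39.6% of all probes were detected per array, and arrays of the same group correlated at 0.986 to 0.992 over the 18921 tested probes. The cells bore their label: all 10 fibroblast marker genes were tested, with a mean normalized log2 intensity over their 16 probes of 10.03 to 10.56 in E157D cells with rosiglitazone, 10.73 to 10.95 in E157D cells with DMSO, 8.84 to 9.42 in wild-type cells with rosiglitazone and 10.06 to 10.34 in wild-type cells with DMSO. In wild-type cells with rosiglitazone the 3 tested adipocyte marker probes, described further below, averaged 8.99 to 9.35, within the range of the fibroblast probes there. Of the endothelial marker list 0 of 9 probes were tested: Pecam1, Kdr, Tek and Tie1 were below detection on every array, and Cdh5 was detected on 1. Of the macrophage list 2 of 14 probes were tested, of Cd14 and Lyz2, while Ptprc, Adgre1 and Itgam were never detected and Csf1r was on 1 array, and Lyz2 fell with the drug and the wild-type receptor (-0.80 ± 0.17, limma, adjusted p = 0.00569). The mean level of those 2 macrophage probes was 5.72 to 5.94 in E157D cells with rosiglitazone, 5.92 to 6.63 in E157D cells with DMSO, 5.75 to 6.07 in wild-type cells with rosiglitazone and 6.35 to 6.62 in wild-type cells with DMSO. Of the muscle list 2 of 8 probes were tested, of Des and Myog, while Myod1, Ckm, Acta1 and Myh6 were never detected, and the 2 averaged 5.25 to 5.38, 5.42 to 5.66, 5.42 to 5.63 and 5.35 to 5.71 in the same 4 groups. Of the epithelial list 3 of 7 probes were tested, of Cdh1, Krt8 and Krt14, while Epcam and Krt18 were never detected. Log2 changes below are limma estimates with their standard errors, from normalized intensities of 3 arrays a group. A call means a Benjamini-Hochberg adjusted p under 0.05 over all 18921 tested probes.

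With the wild-type receptor, rosiglitazone raised 4 uptake genes, Lpl, Fabp4, Fabp5 and Aqp7. With the E157D receptor none of them was called for the drug, and Fabp4 and Aqp7 were below detection there under both treatments. In these bulk samples a change in the share of cells of a type and a change in RNA per cell cannot be told apart. In the wild-type cells 6 of the 8 tested probes rose and 0 fell, where 11.5% of all tested probes rose and 12% fell. The tested probes of Fabp4 and Aqp7, 3 of them of Aqp7, were detected in wild-type cells only. They entered the test through those cells, so their part in this count and in those between the receptors was not free of the filter. Of the 4 member probes detected on all 12 arrays, 2 rose. In the E157D cells 0 of the 8 rose or fell by limma, and 0 had an unadjusted p under 0.05, where 1.94% of all tested probes rose and 1.34% fell. The transporters Slc27a1 and Slc27a4 were called in none of the comparisons.

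The receptors were also compared directly. With rosiglitazone 6 of the 8 probes, of the same 4 genes, were lower with E157D, and 0 were higher, where 8.63% of all tested probes were lower and 9.12% higher. With DMSO alone 3 of the 8 were lower with E157D, of Lpl and Aqp7, and 0 were higher, where 0.624% of all tested probes were lower and 0.365% higher. The response to the drug itself was smaller with E157D at 5 of the 8 probes, of Lpl, Fabp5 and Aqp7, and larger at 0, where 1.19% of all tested probes had a lower and 0.655% a higher response. The comparisons share arrays, so these counts are not independent of each other.

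Probes that were seen only where they were high entered the test through that group. The Fabp4 probe and 1 Aqp7 probe were detected in wild-type cells with rosiglitazone alone, and the other 2 tested Aqp7 probes in wild-type cells alone. Among the members detected on all 12 arrays, which are Lpl, Fabp5, Slc27a1 and Slc27a4, 2 rose with the drug and the wild-type receptor, 1 was lower with E157D in DMSO, 2 were lower with E157D in rosiglitazone and 2 had a smaller response. The median log2 change over these 4 probes was 0.13 for the drug with E157D, where all 13894 probes detected on the 12 arrays had -0.00, and 0.69 for the drug with the wild-type receptor, where those had -0.02. It was -0.13 for E157D over wild-type in DMSO, where all had 0.00, -0.86 in rosiglitazone, where all had 0.02, and -0.47 for the difference of responses, where all had 0.02.

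**Figure D1:**
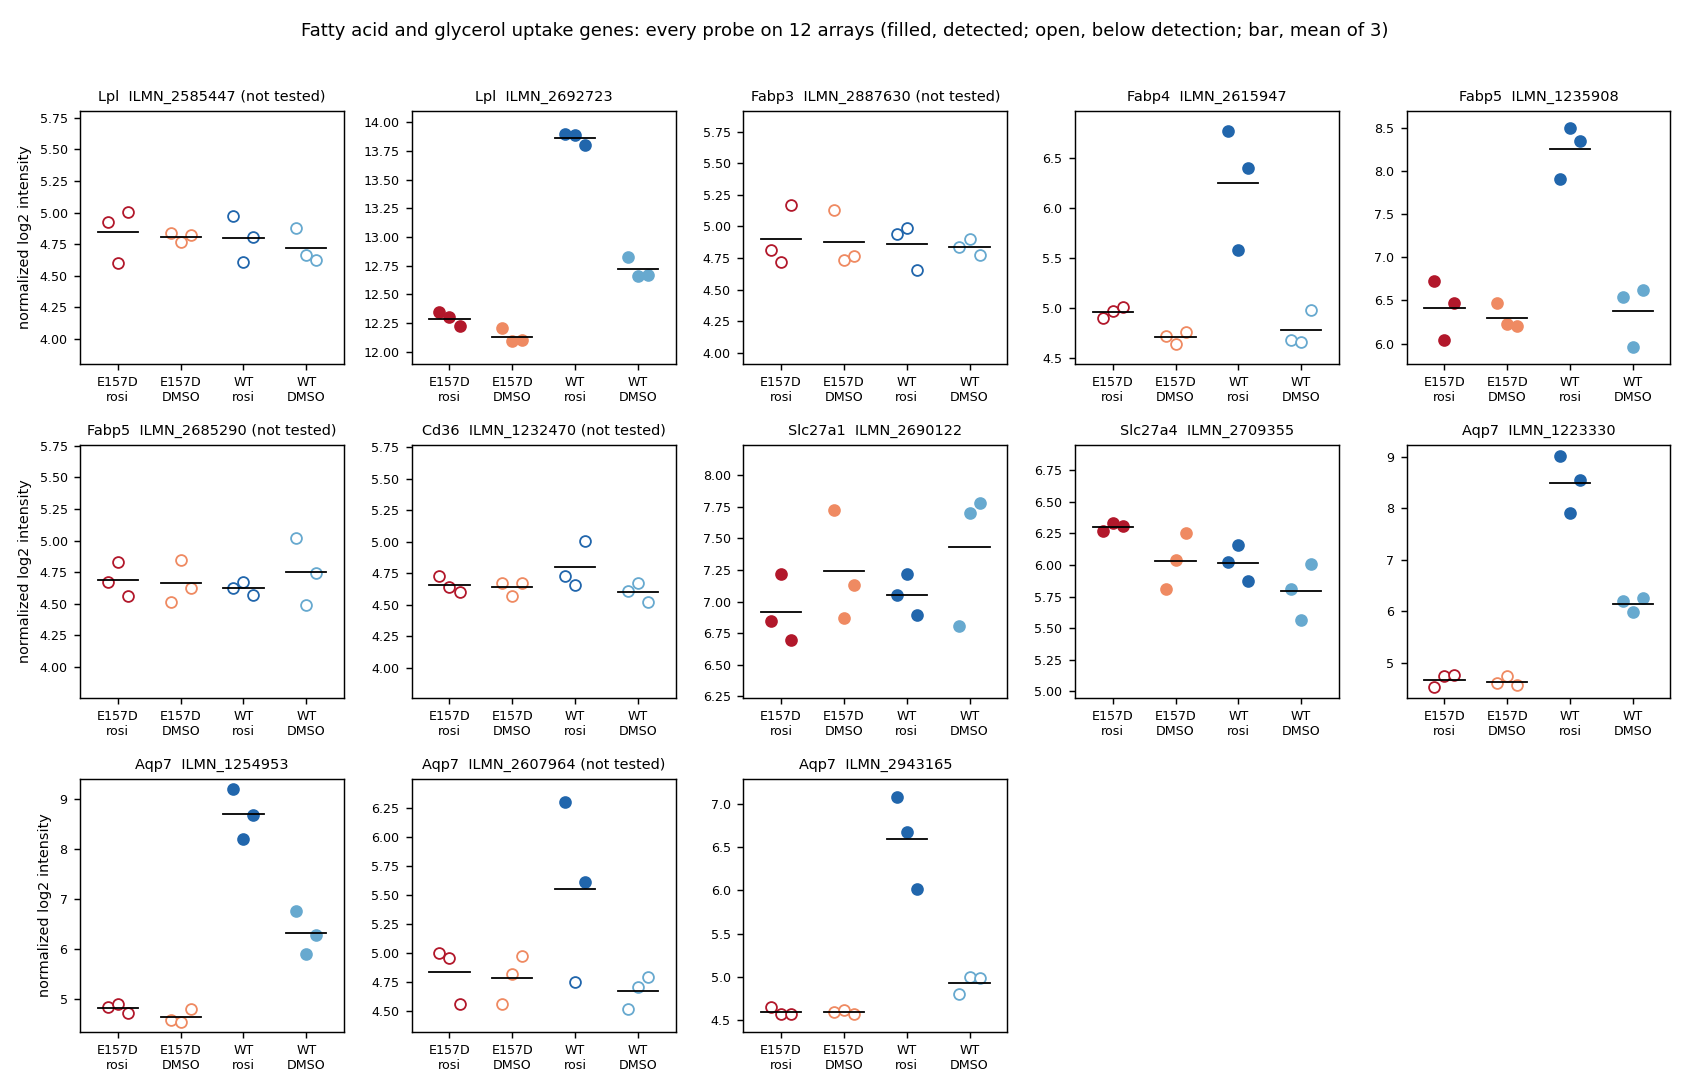
Normalized log2 intensity (vertical axis, a scale of its own in each panel) of all 13 probes of the uptake genes on the 12 arrays. Points are arrays, filled where the probe was detected and open where it was not, bars are means of 3 arrays, and groups run from E157D with rosiglitazone to wild-type with DMSO. The wild-type arrays with rosiglitazone lie above all others for Lpl, Fabp4, Fabp5 and the 3 tested Aqp7 probes.

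Lipoprotein lipase, the enzyme that frees fatty acids at the cell surface, was lower with E157D than with the wild-type receptor under both treatments and rose with the drug in wild-type cells. Lpl (probe ILMN_2692723) had deposited intensities of 5917, 5310 and 5533 in E157D cells with rosiglitazone and 4694, 5016 and 4211 in E157D cells with DMSO. In wild-type cells they were 15247, 14952 and 15089 with rosiglitazone and 5977, 5994 and 6569 with DMSO. The wild-type cells with rosiglitazone stood far above the other 3 groups, and each E157D array with the drug lay below each wild-type array without it.

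On the normalized log2 scale the Lpl arrays read 12.34, 12.30 and 12.22 in E157D cells with rosiglitazone and 12.20, 12.09 and 12.10 in E157D cells with DMSO. They read 13.90, 13.89 and 13.81 in wild-type cells with rosiglitazone and 12.83, 12.66 and 12.67 in wild-type cells with DMSO. No group overlapped another. With the wild-type receptor Lpl rose by 1.15 ± 0.10 on the log2 scale, which is 2.21-fold (limma, adjusted p = 2.04e-05). With E157D the change was 0.16 ± 0.10, with an interval from -0.06 to 0.37 (limma, adjusted p = 0.467). The smaller response with E157D was itself called, with a difference of -0.99 ± 0.14 (limma, adjusted p = 0.00435).

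With rosiglitazone Lpl was 2.98-fold lower in E157D cells, a log2 change of -1.58 ± 0.10 (limma, adjusted p = 7.05e-07). With DMSO it was lower by a log2 change of -0.59 ± 0.10 (limma, adjusted p = 0.0158), a call that was lost under 5 of 22 alternatives. These were median scaling (-0.51, adjusted p = 0.162), only the 2 DMSO groups in the fit (-0.59, adjusted p = 0.0918), and the fits without wild-type DMSO replicate 1 (-0.53, adjusted p = 0.0754), E157D DMSO replicate 2 (-0.57, adjusted p = 0.0830) or E157D DMSO replicate 3 (-0.57, adjusted p = 0.0855). The levels thus ran from wild-type with rosiglitazone, through wild-type with DMSO and E157D with rosiglitazone, to E157D with DMSO, and the last 2 did not differ by the test. A second Lpl probe, ILMN_2585447, was below detection on all 12 arrays, with intensities of 145 to 182.

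The cytosolic carriers gave a detected signal for Fabp4 and Fabp5 and none for Fabp3. Fabp4 encodes the carrier of fat cells and is widely used as a marker of their formation. Fabp4 (probe ILMN_2615947) read 4.90, 4.97 and 5.01 in E157D cells with rosiglitazone, 4.73, 4.65 and 4.77 in E157D cells with DMSO, 6.76, 5.58 and 6.40 in wild-type cells with rosiglitazone and 4.69, 4.66 and 4.99 in wild-type cells with DMSO on the normalized log2 scale. The 3 wild-type arrays with rosiglitazone were detected and the other 9 were not, so no order can be read among the other 3 groups.

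When every array of a group was below detection for a probe, its fold is a lower bound on this normalized scale, taken against the higher of the probe's own signal and the lowest detected signal of each such array. Fabp4 was at least 1.73-fold higher with rosiglitazone than with DMSO in wild-type cells (limma, adjusted p = 0.000798). With rosiglitazone it was at least 1.80-fold lower in E157D than in wild-type cells (limma, adjusted p = 0.00242). The difference of the responses did not pass the test, at -1.22 ± 0.32 with an interval from -1.93 to -0.52 (limma, adjusted p = 0.0876). It was fitted with values below detection in every group but wild-type with rosiglitazone, so its size is not a measured difference. Without wild-type rosiglitazone replicate 2, the lowest of its group, the difference was called, at -1.57 (limma, adjusted p = 0.0028). Fabp4 was then detected on fewer than 3 arrays and would fail the detection filter, which was not applied anew. That call therefore does not decide whether the responses differed. The signal was dim, with intensities from 146 to 246, and where no background was subtracted the log2 change with the wild-type receptor was 0.48. Over the alternatives its change between the receptors in rosiglitazone went down in size to -0.39.

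Fabp5 encodes a carrier of broad expression that is known from skin, macrophages and fat tissue. Its probe ILMN_1235908 was detected on all 12 arrays, with normalized log2 intensities of 6.73, 6.04 and 6.47 in E157D cells with rosiglitazone, 6.47, 6.22 and 6.21 in E157D cells with DMSO, 7.91, 8.50 and 8.35 in wild-type cells with rosiglitazone and 6.54, 5.97 and 6.62 in wild-type cells with DMSO. The wild-type cells with rosiglitazone stood alone, and the other 3 groups overlapped. Fabp5 rose by 1.88 ± 0.22 on the log2 scale, or 3.67-fold, with the drug and the wild-type receptor (limma, adjusted p = 0.000125).

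With E157D the Fabp5 change was 0.11 ± 0.22, with an interval from -0.36 to 0.59 (limma, adjusted p = 0.854). The responses differed by -1.76 ± 0.31 (limma, adjusted p = 0.0128). With rosiglitazone Fabp5 was 3.58-fold lower in E157D cells (limma, adjusted p = 0.000129). In DMSO the receptors differed by -0.08 ± 0.22 (limma, adjusted p = 0.962), so that, unlike Lpl and Aqp7, Fabp5 was not called between the untreated lines. The size of the rise depended on the scale: on the authors' processed values it was 0.95, and still called. Over the alternatives the change between the receptors in rosiglitazone went down in size to -0.94 and the difference of responses to -0.91, both called. A second Fabp5 probe, ILMN_2685290, was below detection on all 12 arrays. The probe for Fabp3, the carrier of heart and muscle, was below detection on all 12 as well, with a lowest detection p of 0.122.

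Of the membrane proteins for fatty acids, Cd36 encodes a scavenger receptor that binds long-chain fatty acids. Its single probe was below detection on all 12 arrays, with intensities from 138 to 171 and a lowest detection p of 0.218, so Cd36 has no measured level or fold in these data. Slc27a1 encodes a fatty acid transporter of fat and muscle that also activates fatty acids to their CoA esters. Slc27a1 (probe ILMN_2690122) read 6.84, 7.22 and 6.69 in E157D cells with rosiglitazone, 7.72, 6.87 and 7.13 in E157D cells with DMSO, 7.05, 7.22 and 6.89 in wild-type cells with rosiglitazone and 6.80, 7.70 and 7.78 in wild-type cells with DMSO. All 4 groups overlapped, and both DMSO groups held 1 array far from the other 2.

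The Slc27a1 change with the drug was -0.32 ± 0.27 with E157D (limma, adjusted p = 0.599) and -0.37 ± 0.27 with the wild-type receptor (limma, adjusted p = 0.351). Those responses differed by 0.05 ± 0.38, with an interval from -0.78 to 0.88, so a difference of the size seen for Lpl lies outside it. Slc27a4 encodes a related transporter of broad expression. Slc27a4 (probe ILMN_2709355) read 6.27, 6.34 and 6.31 in E157D cells with rosiglitazone, 5.81, 6.04 and 6.25 in E157D cells with DMSO, 6.02, 6.16 and 5.88 in wild-type cells with rosiglitazone and 5.81, 5.56 and 6.01 in wild-type cells with DMSO. The E157D cells with rosiglitazone were the highest group and lay above every other array. The drug's change was 0.27 ± 0.15 with E157D (limma, adjusted p = 0.374) and 0.22 ± 0.15 with the wild-type receptor (limma, adjusted p = 0.295), and the interval of their difference ran from -0.40 to 0.49.

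Aqp7, the glycerol channel, had the largest rise among the members measured on both sides, and it was lower with E157D under both treatments. All 4 of its probes carry the same transcript accession in the array's annotation. The first, ILMN_1254953, read 4.83, 4.90 and 4.72 in E157D cells with rosiglitazone, 4.57, 4.54 and 4.80 in E157D cells with DMSO, 9.21, 8.21 and 8.68 in wild-type cells with rosiglitazone and 6.76, 5.91 and 6.29 in wild-type cells with DMSO. Aqp7 was thus detected here on every wild-type array, treated or not, and on none of the E157D arrays. On the same arrays ILMN_1223330 read 4.52, 4.74 and 4.76, then 4.60, 4.74 and 4.57 with E157D, against 9.02, 7.91 and 8.54, then 6.19, 5.99 and 6.26 with the wild-type receptor, rosiglitazone before DMSO in each case.

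With the wild-type receptor the drug raised Aqp7 by 2.38 ± 0.24 on the log2 scale, or 5.21-fold, at ILMN_1254953 (limma, adjusted p = 5.55e-05), and by 2.34 ± 0.22, or 5.08-fold, at ILMN_1223330 (limma, adjusted p = 2.92e-05). With rosiglitazone Aqp7 was at least 9.86-fold and at least 8.54-fold lower in E157D than in wild-type cells at these probes (limma, adjusted p = 5.41e-07 and 2.90e-07). With DMSO it was at least 1.85-fold and at least 1.65-fold lower in E157D cells (limma, adjusted p = 0.00475 at both). With E157D both treatments were below detection, so no fold is given for the drug there. The differences of the responses were -2.20 ± 0.34 and -2.31 ± 0.31 (limma, adjusted p = 0.00700 and 0.00264), fitted with E157D values below detection. Over the alternatives the fitted change between the receptors in rosiglitazone went down in size to -1.76 and -1.69, and the difference of responses to -1.19 and -1.18, all called. The bounds above thus hold for the normalized scale only.

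The remaining Aqp7 probes were detected in wild-type cells with rosiglitazone and nowhere else. Aqp7 at ILMN_2943165 was detected in those 3 arrays, at 7.08, 6.67 and 6.02, and in none of the other 9, which lay between 4.57 and 4.996. There it was at least 2.20-fold higher with the drug in wild-type cells (limma, adjusted p = 0.000168) and at least 2.28-fold lower in E157D than in wild-type cells with the drug (limma, adjusted p = 4.28e-05), and the responses differed by -1.67 ± 0.29 (limma, adjusted p = 0.0122). Over the alternatives the last 2 changes went down in size to -0.67 and -0.51. ILMN_2607964 was detected on 2 arrays, wild-type with rosiglitazone replicates 1 and 3, at 6.30 and 5.62, and was not tested. Sizes at dim probes depended on the background step. On the authors' processed values the drug's log2 change with the wild-type receptor was 0.53 at ILMN_2943165 and 1.22 at ILMN_1223330, and the lower level with E157D in DMSO at ILMN_1223330, then -0.51, was not called (adjusted p = 0.0663, and 0.0680 where no background was subtracted).

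**Figure D2:**
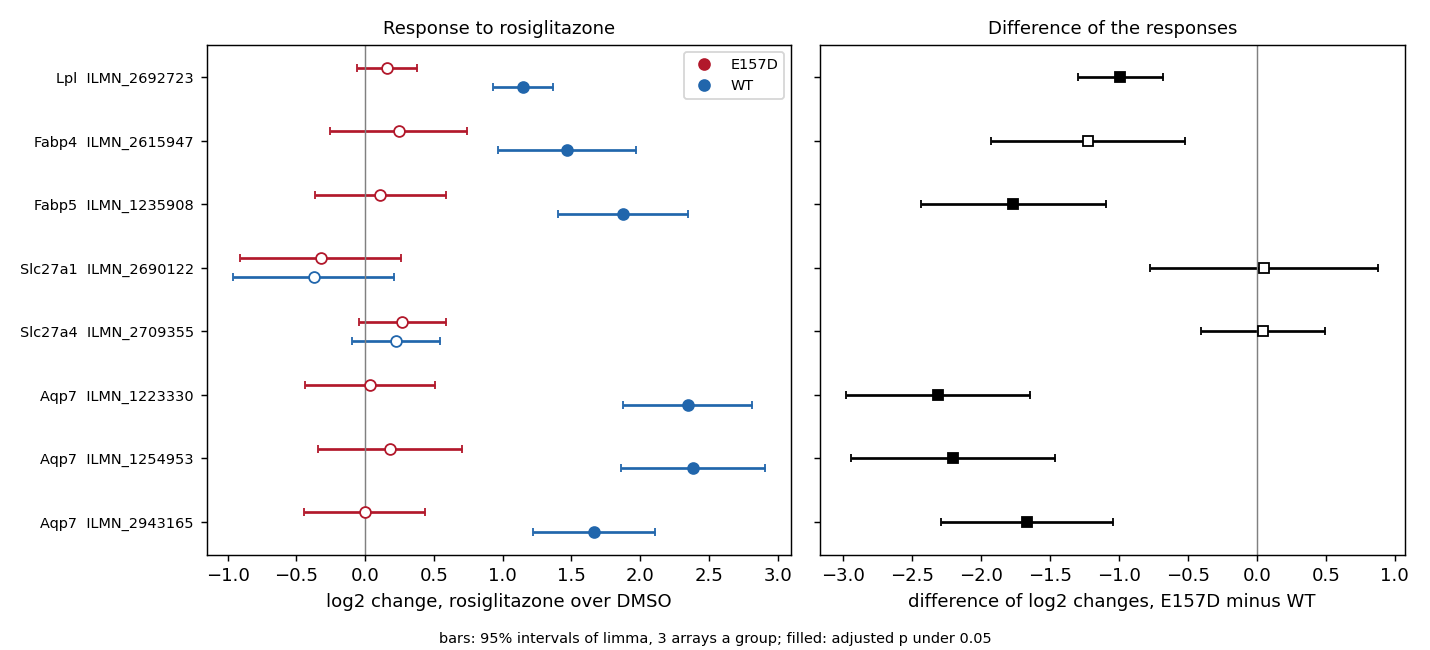
Left, log2 change of rosiglitazone over DMSO for the 8 tested probes with the E157D (red) and wild-type (blue) receptor. Right, the difference of the 2 responses, E157D minus wild-type. Bars are 95% intervals of limma from 3 arrays a group, and filled symbols have an adjusted p under 0.05. Every E157D interval spans 0, while 6 wild-type intervals lie above 0 and those of Slc27a1 and Slc27a4 span it. The E157D values of Fabp4 and Aqp7 are all below detection, as are the wild-type DMSO values of Fabp4 and ILMN_2943165.

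The Aqp7 start region was searched for the direct repeat that PPARγ and RXR bind, written AGGTCANAGGTCA, on both strands, with at most 2 of its 12 fixed letters different. Sequences were RefSeq windows of 300 bases around annotated gene starts on GRCm38.p6, which matched 6 of the 9 genes: Fabp3, Cd36, Slc27a1, Slc27a4, Aqp7 and Gk. Lpl, Fabp4 and Fabp5 were not searched. The motif at this stringency was in 3 of their 9 windows, of Aqp7 and Cd36, and in 3.86% of all 32851 windows of the genome. With at most 1 letter different it was in 0.554% of all windows and in none of the 9. The 250 bases before 1 annotated Aqp7 start, chr4:41047963-41048212 on the minus strand, are shown because they hold both Aqp7 matches, in capitals.
Aqp7 upstream: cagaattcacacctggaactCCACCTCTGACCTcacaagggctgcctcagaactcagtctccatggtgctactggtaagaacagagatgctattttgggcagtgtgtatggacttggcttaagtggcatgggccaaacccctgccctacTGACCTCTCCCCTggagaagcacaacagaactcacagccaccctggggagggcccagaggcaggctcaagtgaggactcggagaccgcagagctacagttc

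Counted from that start, the Aqp7 matches begin at positions -230 and -101, and the first of them also begins at -56 from a second annotated Aqp7 start. The Cd36 match begins at -63 from the start in the window at chr5:17835847-17836146 on the minus strand. In all 3 cases the motif runs on the strand opposite to the gene. They are set out below in the direction of the motif, so that each can be read against it.
Aqp7 at -230: AGGTCAGAGGTGG
Aqp7 at -101: AGGGGAGAGGTCA
Cd36 at -63: AAGTCAGAGGCCA
A match in these letters is a description of the window. Aqp7, which had 2 such matches, rose in wild-type cells with the drug, and Cd36, which had 1, was not detected in any group.

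Set among all 18921 tested probes, the rises with the wild-type receptor were large but not the largest. A change at least as high as that of Lpl was seen for 1.66% of probes, as that of Fabp5 for 0.370% and as those of Aqp7 at ILMN_1223330 and ILMN_1254953 for 0.201% and 0.185%. With E157D 25.7% of probes had a change at least as high as that of Lpl and 31.6% as that of Fabp5. Fabp4 and the other Aqp7 probe, whose changes are bounds, and Aqp7 with E157D are given no such share. The range of all probes was -1.75 to 3.94 with E157D and -2.66 to 5.62 with the wild-type receptor, so some probes did change with the drug in E157D cells.

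**Figure D3:**
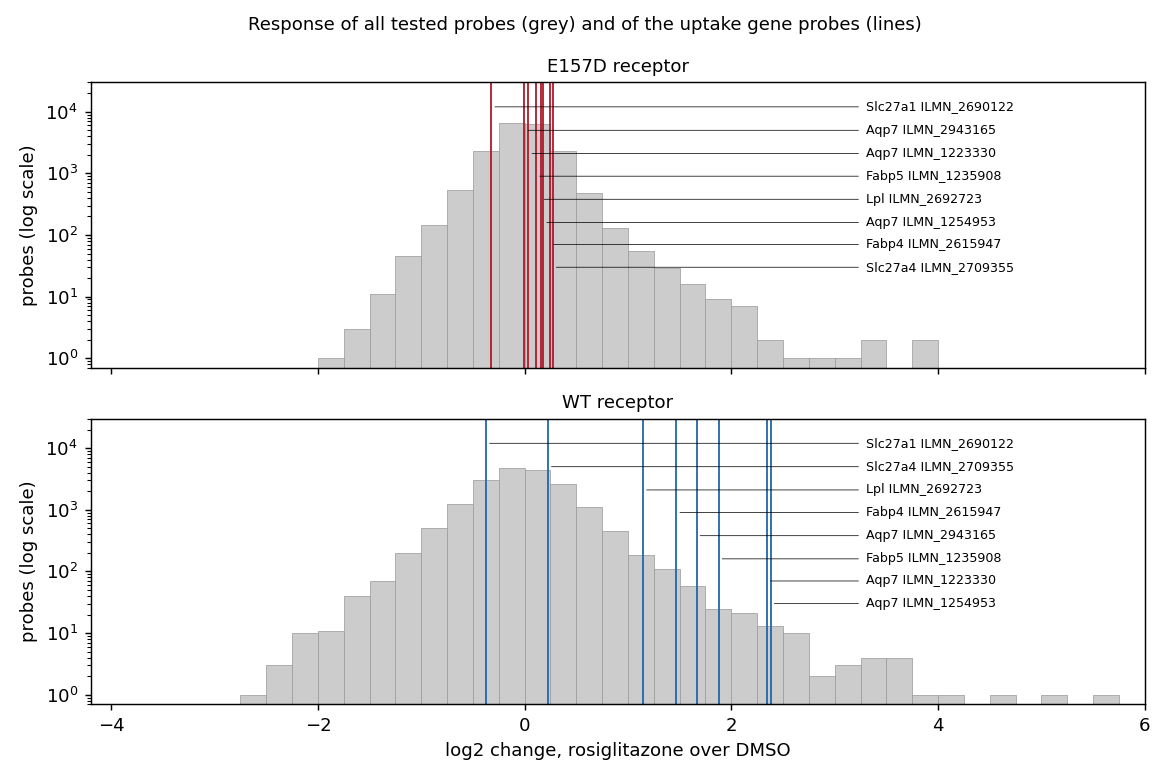
Number of tested probes (vertical axis, log scale) by log2 change of rosiglitazone over DMSO, with the E157D receptor above and the wild-type receptor below. Vertical lines mark the 8 probes of the uptake genes. They lie between -0.32 and 0.27 with E157D, and 6 of them lie between 1.15 and 2.38 with the wild-type receptor. Lines of Fabp4 and Aqp7 with E157D, and of Fabp4 and ILMN_2943165 with the wild-type receptor, rest on values below detection.

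Among the partners and relatives of lipoprotein lipase, Angptl4 rose with the drug under both receptors. Of 23 listed genes, 12 were tested with 21 probes. With E157D the drug raised 2 probes and lowered 0, where 1.94% of all tested probes rose and 1.34% fell. With the wild-type receptor it raised 4 and lowered 5, where 11.5% rose and 12% fell. Angptl4, a secreted inhibitor of lipoprotein lipase and a known PPAR target, had deposited intensities of 26988, 22404 and 24102 in E157D cells with rosiglitazone, 7036, 7345 and 4950 in E157D cells with DMSO, 22590, 21200 and 23697 in wild-type cells with rosiglitazone and 7277, 7870 and 7393 in wild-type cells with DMSO at probe ILMN_2759365. Treated and untreated arrays did not overlap under either receptor. The log2 change was 1.86 ± 0.14 with E157D (limma, adjusted p = 5.13e-05) and 1.48 ± 0.14 with the wild-type receptor (limma, adjusted p = 3.91e-05). The difference of these Angptl4 responses was 0.37 ± 0.20, with an interval from -0.06 to 0.81 (limma, adjusted p = 0.426), so a smaller response of the size seen for Lpl lies outside it. A second called Angptl4 probe, ILMN_2424627, changed less, by 1.04 with E157D and 0.85 with the wild-type receptor. On the authors' processed values its changes were 0.32 and 0.25, both called.

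Other called genes of that list moved less than Angptl4 at ILMN_2759365. With the wild-type receptor the drug raised Vldlr, a receptor of triglyceride-rich lipoproteins, by 0.77 and 0.54 at 2 probes and lowered Hspg2, which encodes the heparan sulfate proteoglycan perlecan, by log2 changes of -0.60 and -0.73, and Furin, a protease that cleaves lipoprotein lipase, by -0.46 (limma, adjusted p from 0.0032 to 0.0148). In rosiglitazone 8 probes were higher and 1 was lower with E157D, where 9.12% of all tested probes were higher and 8.63% lower, led by Sdc1, a cell surface proteoglycan, at 0.72 and 1.00, with Vldlr at 0.54 and 0.63, Lmf2 at 0.75 and the lysosomal lipase gene Lipa at -0.60 (limma, adjusted p from 0.0023 to 0.0411). In DMSO 1 probe, of Vldlr, was higher with E157D by 0.67 ± 0.14 (limma, adjusted p = 0.0452), where 0.365% of all tested probes were higher. Under median scaling 6 of those 9 were called, Lipa not among them, and the falls with the drug of Furin (adjusted p = 0.181) and of Hspg2 at 1 probe (-0.43, adjusted p = 0.101) were not called. On the authors' processed values Lmf2 between the receptors in rosiglitazone was 0.22 and not called (limma, adjusted p = 0.0646), Sdc1 was 0.44 and 0.48, and Vldlr with the drug and the wild-type receptor was 0.35 and 0.31. Of the 21 probes 0 were called for the difference of responses by limma, with 3 at an unadjusted p under 0.05. Of all tested probes 1.19% were called for a lower and 0.655% for a higher response. The partner of lipoprotein lipase on the endothelial surface, Gpihbp1, was not tested.

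Relatives of the cytosolic carriers that were called moved otherwise than Fabp4 and Fabp5. Of 12 listed relatives, 4 were tested with 1 probe each. Rbp7 (probe ILMN_2733708), a retinol carrier of the same protein family, read 7.82, 6.68 and 7.10 in E157D cells with rosiglitazone, 4.66, 4.91 and 5.22 in E157D cells with DMSO, 6.001, 5.76 and 5.18 in wild-type cells with rosiglitazone and 4.65, 4.63 and 5.29 in wild-type cells with DMSO. It was detected on all 3 E157D arrays with the drug and on 2 of the wild-type arrays with it. Rbp7 was at least 3.41-fold higher with the drug in E157D cells (limma, adjusted p = 0.00157). In wild-type cells, with all DMSO arrays below detection, it was at least 1.14-fold higher and not called (limma, adjusted p = 0.0737). With rosiglitazone E157D cells had more of it than wild-type cells, by 1.55 ± 0.30 (limma, adjusted p = 0.00375), the opposite sign from Fabp4 and Fabp5. On the authors' processed values the log2 change with E157D was 0.83 and that between the receptors 0.58, both called. The difference of the responses was not called (limma, adjusted p = 0.108), and its size is not given since both DMSO groups were below detection. A second Rbp7 probe, ILMN_1218914, was below detection on every array.

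Crabp1, a retinoic acid carrier, fell with the drug in wild-type cells by a log2 change of -1.31 ± 0.24 (limma, adjusted p = 0.00201) and was higher with E157D in rosiglitazone by 1.54 ± 0.24 (limma, adjusted p = 0.000937). Of the 4 other SLC27 transporters, 2 were tested, and limma called 0 in any of the 5 comparisons, with 1 at an unadjusted p under 0.05 for the drug with E157D, 1 for the receptors in DMSO and 0 in the other 3. The shares of all tested probes called are given above for each comparison. No share of all probes was taken at the unadjusted level, for this list or the others.

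Of 14 listed genes of fatty acid uptake at the membrane and of activation, 12 were tested with 25 probes. With the drug and E157D 1 rose and 1 fell, where 1.94% and 1.34% of all tested probes did, and with the wild-type receptor 4 rose and 3 fell, where 11.5% and 12% did, so these counts lie near those of all probes. Cav1, which encodes the caveolar coat protein caveolin, fell with the drug by a log2 change of -0.61 ± 0.13 with E157D (limma, adjusted p = 0.0287) and of -1.01 ± 0.13 with the wild-type receptor (limma, adjusted p = 0.000296). Dbi, which encodes the acyl-CoA binding protein, rose by 0.53 with E157D (limma, adjusted p = 0.0168). With the wild-type receptor Acsl4, an acyl-CoA synthetase, rose at 2 probes by 0.89 and 0.95 and was at least 1.68-fold higher at another, Scp2, a sterol and lipid carrier, rose by 0.37 and the caveolin gene Cav2 fell by a log2 change of -0.73. On the authors' processed values the 3 Acsl4 changes were 0.45, 0.49 and 0.26.

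Between the receptors in rosiglitazone 0 of the 25 probes were higher and 7 were lower with E157D, where 9.12% and 8.63% of all tested probes were, of Scp2, Cavin1, Acsl4 and Got2, with log2 changes of -0.42 to -0.78. These calls depended on the scaling: under median scaling all 7 kept their sign and 1, of Scp2, was called. The Cav1 fall with E157D was not called under it either (adjusted p = 0.111). Limma called 0 of the 25 between the receptors in DMSO, with 3 at an unadjusted p under 0.05, and 0 for the difference of responses, with 7. Of all tested probes 0.365% were called higher and 0.624% lower in DMSO, and 0.655% and 1.19% for the difference.

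Called glycerol genes other than Aqp7 had log2 changes under 1 in size. Of 11 listed channels and glycerol phosphate enzymes, 7 were tested with 10 probes. With the drug and E157D 0 rose and 1 fell, where 1.94% and 1.34% of all tested probes did: Aqp5 was at -0.77 (limma, adjusted p = 0.0440). In wild-type cells 1 rose and 3 fell, where 11.5% and 12% did: Aqp11 rose by 0.85 ± 0.19 (limma, adjusted p = 0.0076), and the channel genes Aqp5, Aqp3 and Aqp1 had log2 changes of -0.95, -0.64 and -0.59 (limma, adjusted p = 0.00315, 0.0318 and 0.0218). In rosiglitazone 0 were higher and 3 lower with E157D, where 9.12% and 8.63% of all tested probes were, Aqp11 at -0.74, Gpd2, the mitochondrial glycerol phosphate dehydrogenase, at -0.62 and Aqp3 at -0.61. Under median scaling 0 of these 3 were called, nor was the Aqp5 fall with E157D (adjusted p = 0.0752). On the authors' processed values Aqp3 was -0.19 between the receptors and not called (adjusted p = 0.141), and the changes with the wild-type receptor were 0.44 for Aqp11 and -0.57, -0.28 and -0.32 for Aqp5, Aqp3 and Aqp1. Between the receptors in DMSO limma called 0, with 1 at an unadjusted p under 0.05, and for the difference of responses 0, with 3. Of all tested probes 0.365% were called higher and 0.624% lower in DMSO, and 0.655% and 1.19% for the difference.

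**Figure D4:**
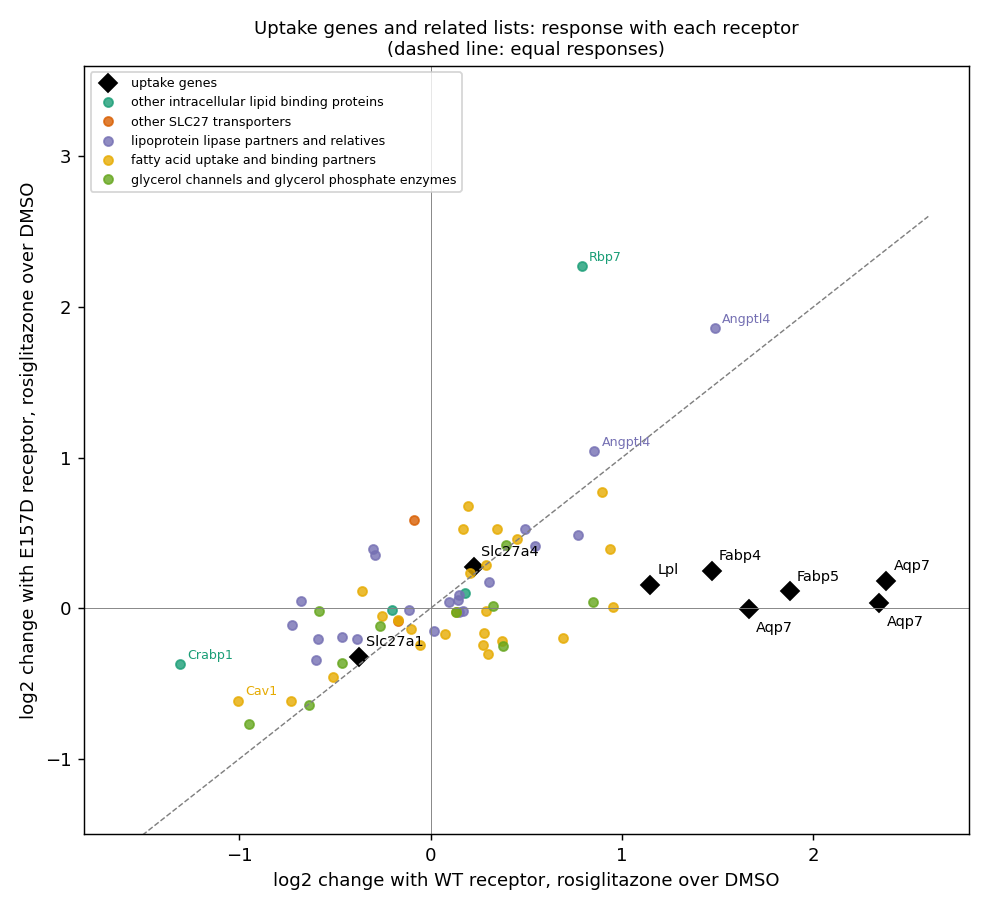
Log2 change of rosiglitazone over DMSO with the E157D receptor (vertical axis) and with the wild-type receptor (horizontal axis) for the tested probes of the uptake genes (diamonds) and of 5 related lists (circles). The dashed line marks equal responses. Lpl, Fabp4, Fabp5 and Aqp7 lie to the right near 0 on the vertical axis, Angptl4 near the line and Rbp7 above it.

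Markers of fat cells rose with the drug in wild-type cells, as Lpl, Fabp4, Fabp5 and Aqp7 did. Some of them also rose with E157D, where no uptake probe was called for the drug. Of 6 listed adipocyte markers 3 were tested, Adipoq, Plin1 and Cidec, while Retn was below detection on every array. Their mean normalized log2 intensity was 5.79 to 6.08 in E157D cells with rosiglitazone, 4.71 to 4.72 in E157D cells with DMSO, 8.99 to 9.35 in wild-type cells with rosiglitazone and 5.20 to 5.57 in wild-type cells with DMSO. With the drug 2 of the 3 rose with E157D and all 3 with the wild-type receptor, where 1.94% and 11.5% of all tested probes did. All 3 had a smaller response with E157D, where 1.19% of all tested probes had a lower one. In E157D cells with DMSO the mean over the 3 markers lay below the lowest detected signal of those arrays, 5.40 to 5.46 on the log2 scale. The E157D responses were thus fitted with values below detection, and these marker counts are not free of the filter. Between the receptors 1 was lower with E157D in DMSO and 3 in rosiglitazone, where 0.624% and 8.63% of all tested probes were. Over the same arrays 2 of the 16 fibroblast marker probes fell with the drug and E157D and 12 with the wild-type receptor, where 1.34% and 12% of all tested probes did. The keratin gene Krt14, of the epithelial list, also moved with the uptake genes: it rose with the drug and the wild-type receptor by 1.39 ± 0.13 (limma, adjusted p = 3.57e-05), was at least 3.00-fold lower in E157D than in wild-type cells with the drug (limma, adjusted p = 4.55e-07) and at least 1.12-fold lower in DMSO (limma, adjusted p = 0.0340), and was below detection on all E157D arrays. Krt14 alone of the 3 tested epithelial probes was called in these comparisons, and Cdh1 and Krt8 were not. Of all tested probes 11.5% rose with the drug and the wild-type receptor. With E157D 8.63% were lower in rosiglitazone and 0.624% in DMSO. The mean level of the 3 epithelial probes was 5.17 to 5.39 in E157D cells with rosiglitazone, 5.24 to 5.37 in E157D cells with DMSO, 5.93 to 6.09 in wild-type cells with rosiglitazone and 5.48 to 5.55 in wild-type cells with DMSO. The part of these markers in the uptake results was not tested.

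Across the 12 arrays the 6 rising probes followed one another, which describes 4 groups more than 12 points. Over normalized log2 values the Pearson correlation of Lpl was 0.983 with Aqp7 at ILMN_1254953, 0.917 with Fabp5 and 0.858 with Fabp4, and -0.07 with Slc27a1 and -0.22 with Slc27a4. Among 15989 probes of other genes, those most like Lpl were Treml1, Sod2 and S100a1, at 0.991, 0.989 and 0.989. The nearest to Fabp4 were Aldh3b2, Clstn3 and Abhd12, at 0.974, 0.967 and 0.966, and to Fabp5 Mettl7b, Cs and Egfl7, at 0.970, 0.967 and 0.966. Aqp7 was nearest to Mfsd7a, S100a1 and Shroom2 at ILMN_1223330 (0.989 to 0.987), to Krt13, Rps19 and Mfsd7a at ILMN_1254953 (0.988 to 0.983) and to Rnf11, Sh3tc2 and Crat at ILMN_2943165 (0.982 to 0.973). The arrays share their groups, so values this high are given as a description, with no test.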

How the data were processed

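Total RNA of 12 NIH-3T3 cultures was labelled with biotin and hybridised to 1-colour Illumina bead arrays, per the labels. Each array has, per the file headers, an intensity and a detection p-value per probe, which the authors deposited without normalization between arrays. The lowest intensity was 107, and the detection p-values come in steps of 1/936. A table of the authors' processed intensity values, whose method and genome build are not given in the sources used here, served as an alternative.

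Intensities were corrected with normexp from the detection p-values, given an offset of 16, quantile-normalized and log2-transformed by neqc (limma 3.58.1 under R 4.3.3), which hides a shift common to all genes. Group means were fitted with lmFit and eBayes on the kept probes, with 8 residual and 4.2 prior degrees of freedom, and p-values were adjusted over them by Benjamini-Hochberg. Probes were tested singly, and the number of arrays limits the precision. The script was tested on simulated arrays. Of all probes 34885 carry 1 symbol, 18 several and 10378 none; a probe with none is unnamed here. Symbols were checked against RefSeq (GRCm38.p6) by gene number for 34807, and 0 changed.

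The members, lists and tests were chosen with earlier results of these data known. Named are all members, up to 4 called genes with the smallest adjusted p per list and comparison, and the 3 genes most like each called probe. Same-numbered arrays deviated together at correlations of 0.108 to 0.221 over the 3 pairs of the wild-type receptor, so these numbers, which come from the labels, pair the arrays by the data. In the other comparisons at least 1 pair was below 0.1, down to 0.030. Over all groups, 11 of the 12 arrays deviated most like an array of their own number from another group. The main fits left this pairing out, and fits with the number as a block are given below.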

Additional observations from a re-analysis of the deposited data

Results flagged for a closer look

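The response to rosiglitazone differed between the receptors, by the test of the difference itself, at 5 probes of 3 genes. The log2 change with E157D minus that with the wild-type receptor was -0.99 ± 0.14 for Lpl, -1.76 ± 0.31 for Fabp5, and -2.31 ± 0.31, -2.20 ± 0.34 and -1.67 ± 0.29 for Aqp7 at ILMN_1223330, ILMN_1254953 and ILMN_2943165. Over the alternatives tried these went down in size to -0.96 for Lpl, -0.91 for Fabp5, and -1.18, -1.19 and -0.51 for Aqp7 in the same order, and all stayed called. With the drug, Lpl averaged 12.29 ± 0.06 in E157D cells and 13.86 ± 0.05 in wild-type cells (SD, n = 3 arrays each), and Fabp5 6.41 ± 0.35 in E157D cells and 8.25 ± 0.30 in wild-type cells. On the 6 E157D arrays no Aqp7 probe was detected. At ILMN_1223330 and ILMN_1254953 the fitted differences thus set a measured response against values below detection. At ILMN_2943165 the wild-type DMSO arrays were below detection too, so neither response was measured there and its size is a fitted value only. The amount of receptor was not measured, and its part in these differences was not tested.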

How the results depend on the processing

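The 40 results on single probes, 20 of them called, were recomputed under 10 other settings and without each of the 12 arrays, 842 values in all. None changed sign while called in either setting. Called results stayed called in 408 of 415 values. The 7 lost are the Lpl and Aqp7 values in DMSO given above. The 1 gained is the Fabp4 difference of responses, in a fit where its probe would fail the detection filter.

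Of the member probes called, 2 of 6 were left for the drug with the wild-type receptor, 1 of 3 for the receptors in DMSO, 2 of 6 in rosiglitazone and 2 of 5 for the difference when only probes detected on all 12 arrays were tested, since fewer probes then enter. The difference had 3 with 1 probe per gene, for the same reason. Leaving out 1 array gave 6 to 6 for the drug with the wild-type receptor, 0 to 0 with E157D, 2 to 3 for the receptors in DMSO, 6 to 6 in rosiglitazone and 5 to 6 for the difference. Every fit without an array kept the probes chosen on all 12, so the detection filter was not applied anew. Fabp4 and ILMN_2943165 were detected on 3 arrays, all wild-type with rosiglitazone, and would fail the filter where any of those was left out. The steadiness of these counts is thus in part set by the filter.

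Counts over all probes moved more, and the cause was not tested. For the drug with E157D (621 as reported) they were 1185 without background correction, 1125 with the authors' values, 1122 with a trended robust prior, and 381 with its 2 groups alone. For the receptors in DMSO (187) they were 281, 289, 307 and 102 in that order. For the difference (349) they were 220 under median scaling, 824 without background correction, 525 with an offset of 50, 834 with the authors' values and 731 with the trended prior. Under median scaling the median log2 change of all probes was 0.12 between the receptors in DMSO, in place of 0.01, and 0.17 in rosiglitazone, in place of 0.02. The share of calls that were higher was 78.4% in place of 59.3% for the drug with E157D, 56.4% in place of 36.9% for the receptors in DMSO and 76.8% in place of 51.4% in rosiglitazone.

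With the replicate number as a block, the paired comparison of the drug with the wild-type receptor had 5017 calls in place of 4453, the drug with E157D 947, the receptors in DMSO 298, the receptors in rosiglitazone 3927 and the difference 499. The block changed no call of a member probe. Of 49 calls in the related lists, all 49 kept their sign under median scaling and with the authors' values, and 32 and 44 were called.

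Leaving out 1 array gave 267 to 660 calls for the drug with E157D, 89 to 208 for the receptors in DMSO, 179 to 296 for the difference, 2021 to 3389 for the receptors in rosiglitazone and 2955 to 4460 for the drug with the wild-type receptor. Counts fell by over 1.5 times for the last without wild-type rosiglitazone replicate 1, and for the receptors in rosiglitazone without that array (2021) or E157D rosiglitazone replicate 2 (2177). They did so for the drug with E157D without either treatment's replicates 1 (267 and 336) and 3 (345 and 301) or DMSO replicate 2 (307), and for the receptors in DMSO without any of the 3 wild-type arrays (91 to 116) or E157D replicates 2 and 3 (90 and 89). The difference did so without 8 of the 12 arrays (179 to 232), the exceptions being both remaining wild-type rosiglitazone arrays, wild-type DMSO replicate 1 and E157D rosiglitazone replicate 3. Fabp4, at no more than 246 intensity units, lay close to background, which limits its fold.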
